A study of Mus musculus with 10 samples.

Results

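Interferon-stimulated genes were examined in hematopoietic stem cells (HSCs) of 18-month-old C57BL/6J mice lacking the aryl hydrocarbon receptor (AHR-KO, 5 arrays) and of 18-month-old wild-type C57BL/6J mice (WT, 5 arrays). The list held 37 genes chosen by symbol for their known induction by interferon, and 31 of them had a probe set of their own among the 22180 genes measured. The 6 others gave no value: the probe sets of Oas1a, Dtx3l, Gbp2, Ifi47 and Ifi203 name more than 1 gene, and Ifi44 has no entry in the annotation used here. SLAM+ HSCs were sorted from marrow after removal of cells carrying lineage markers, and amplified cDNA from their RNA was hybridised to Affymetrix Mouse Gene 2.0 ST arrays. The labels call the AHR-KO genotype an Ahr knockout and name no allele, sex or Cre driver, and the study describes AHR-KO mice as a whole-body deletion, so that marrow stroma lacks the receptor as well. No treatment was given to either group. Nothing in the labels says that each array held cells of a separate mouse, so the p-values given here measure the spread between arrays.

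Type I interferons bind the IFNAR1/IFNAR2 receptor, and its kinases JAK1 and TYK2 set off a complex with STAT2 and IRF9 that binds the interferon-stimulated response element in front of antiviral genes. Interferon-gamma signals through IFNGR1/IFNGR2, JAK1 and JAK2 to the gamma-activated sequence. HSCs are known to respond to interferon, which can drive them out of quiescence, and they are also known to keep a set of interferon-stimulated genes switched on without infection. AHR is a ligand-activated transcription factor, and Tiparp, 1 of its textbook targets, restrains interferon signalling in mice.

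The promoters are shown as a description of the list. The choice of the listed genes did not use the letters of these 2 binding elements. It did use known induction by interferon, which acts through them, so an excess of matches is no independent evidence. Promoter windows of 250 bases before to 50 bases after the start site, taken from RefSeq on GRCm38.p6, were held for 28 of the 37 genes (34 windows). The response element core, searched as GAAANNGAAA on both strands, stood in 19 of the 34 windows (55.9%) and in at least 1 window of 18 of the 28 genes (64.3%), against 3.44% of all 32851 windows and 3.99% of all 27025 genes. The gamma-activated sequence, searched as TTCNNNGAA on both strands, stood in 7 of the 34 windows (20.6%), against 8.30% of all windows. The core of the AHR response element, searched as GCGTG on both strands, stood in 12 of the 34 windows (35.3%), against 32.4% of all windows. Matches are a description of letters and show no binding. The 250 bases before the start site are printed below for Isg15 (chr4:156200819-156201068, minus strand), Trim30a (chr7:104465194-104465443, minus strand), Bst2 (chr8:71537473-71537722, minus strand), Igtp (chr11:58199306-58199555, plus strand) and Irf1 (chr11:53769764-53770013, plus strand), 5′ to 3′, with matches to the 2 interferon elements in capitals.
Isg15: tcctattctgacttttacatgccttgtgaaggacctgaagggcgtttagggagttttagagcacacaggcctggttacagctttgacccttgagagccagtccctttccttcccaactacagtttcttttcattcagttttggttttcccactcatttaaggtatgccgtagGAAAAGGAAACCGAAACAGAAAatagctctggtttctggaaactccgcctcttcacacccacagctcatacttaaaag
Trim30a: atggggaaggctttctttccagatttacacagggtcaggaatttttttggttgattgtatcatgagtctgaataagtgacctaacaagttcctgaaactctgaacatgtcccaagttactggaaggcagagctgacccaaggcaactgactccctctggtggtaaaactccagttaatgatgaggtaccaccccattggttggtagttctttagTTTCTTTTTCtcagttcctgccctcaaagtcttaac
Bst2: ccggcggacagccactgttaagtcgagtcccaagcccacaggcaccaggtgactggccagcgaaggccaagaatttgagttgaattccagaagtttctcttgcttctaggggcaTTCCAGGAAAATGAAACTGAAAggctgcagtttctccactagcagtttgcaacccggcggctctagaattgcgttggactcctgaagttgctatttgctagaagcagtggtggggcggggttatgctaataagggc
Igtp: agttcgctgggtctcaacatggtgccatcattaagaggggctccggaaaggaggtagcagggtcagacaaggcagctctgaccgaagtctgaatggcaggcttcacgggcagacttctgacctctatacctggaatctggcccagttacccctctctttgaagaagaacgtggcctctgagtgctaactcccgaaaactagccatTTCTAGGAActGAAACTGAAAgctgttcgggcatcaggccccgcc
Irf1: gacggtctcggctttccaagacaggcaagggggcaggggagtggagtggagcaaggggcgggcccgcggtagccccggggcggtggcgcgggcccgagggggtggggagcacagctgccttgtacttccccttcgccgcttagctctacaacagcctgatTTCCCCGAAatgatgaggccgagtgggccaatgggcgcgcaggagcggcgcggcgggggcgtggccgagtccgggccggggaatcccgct
Isg15 carries 3 overlapping matches to the response element, whose first bases lie 78, 72 and 66 bases before the start site. Trim30a carries 1 match on the other strand, 36 bases before it. Bst2 carries 2 overlapping matches at 130 and 124 bases, the first of them overlapped by a gamma-activated sequence at 136 bases. Igtp carries a gamma-activated sequence at 45 bases and a response element at 34 bases. Irf1 carries a gamma-activated sequence at 90 bases and no response element in this window.

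The arrays themselves were checked before the genes were compared. The deposited values are linear signals with the same median (24.7) and the same highest value in all 10 arrays, and the number of arrays limits the precision. The targeted gene, Ahr, read 53.8, 19.9, 38.3, 60.9 and 75.6 in AHR-KO arrays 1 to 5 and 93.9, 40.0, 37.6, 34.6 and 9.9 in WT arrays 1 to 5. The sources used here do not say where its probes lie relative to the deleted part of the gene, so these levels check no label. HSC markers were present, with 24 of 25 measured markers above background, and their summed signal ran from 6092 to 13458 in AHR-KO arrays and from 9062 to 13446 in WT arrays. They did not lie evenly between the groups, with 3 of the 25 above 0 in AHR-KO over WT and 22 below (median log2 difference -0.25). By contrast, 13 of 14 erythroid markers (median 0.48) and 11 of 13 T and NK cell markers (median 0.29) lay above 0. Of 13 mast cell and basophil markers, 10 lay below (median -0.38). Of all genes, 51.1% lay above 0. A difference of 1.5-fold or more with an unadjusted p under 0.05 by limma was found for 0.523% of all genes. It was found for 3 of the 13 mast cell and basophil markers. Of 15 stroma and endothelium markers, 1 was higher and 1 lower in AHR-KO by this rule. Monocyte, macrophage and dendritic cell markers were present as well, with 21 of 24 above background and sums of 5609 to 19645 in AHR-KO arrays and 7702 to 16618 in WT arrays. Cd48, whose protein the SLAM sort selects against, read 71.6 to 677.6 in AHR-KO arrays and 123.0 to 435.0 in WT arrays. AHR-KO arrays 1 and 2 and WT arrays 1 and 5 stood apart from the 6 others on the leading principal component, which held 30.6% of the variance over all genes. Those 4 arrays were also the lowest of their groups for the monocyte, macrophage and dendritic cell markers. For the HSC markers they were the highest of the 10. Their HSC sums were 12046 and 13458 in AHR-KO arrays 1 and 2 and 13446 and 12979 in WT arrays 1 and 5. The 6 others had HSC sums of 6092 to 10020. In bulk samples, fewer cells of a type and less RNA per cell cannot be told apart. The part of these markers in any result below was not tested.

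None of the 31 interferon-stimulated genes passed a test of AHR-KO against WT HSCs over the 10 arrays without blocks or array weights. With blocks or array weights, Ifi204 alone did so, as given below. The values of the 31 genes lay on both sides of 0. Their AHR-KO over WT log2 difference, on the scale log2(signal + 16), was above 0 for 18 genes and below 0 for 13 (58.1% above 0, against 51.1% of all genes), and its median was 0.06, against 0.0040 for all genes. At an adjusted p under 0.05 by limma, with Benjamini-Hochberg adjustment over all genes, 0 of the 31 were called, and 0 of all 22180 genes (0%). At an unadjusted p under 0.05 by limma, 0 of the 31 passed, against 830 of all genes (3.74%), and 0 of the 31 passed with the equal-variance test for 2 groups that the methods name. At the threshold used by the study, a difference of 1.5-fold or more with an unadjusted p under 0.05, 0 of the 31 passed, against 116 of all genes (0.523%). The AHR-KO and WT arrays overlapped for all 31 genes, whereas they did not overlap for 151 of all genes (0.681%). The smallest unadjusted p was 0.0673, for Trim30a, and the adjusted p of every listed gene was 0.998 or above. The 95% intervals of the log2 differences had half-widths of 0.31 to 0.94 (median 0.49), and those of 12 genes lay inside 1.5-fold in either direction, and those of the 19 others reached beyond it.

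**Figure D1:**
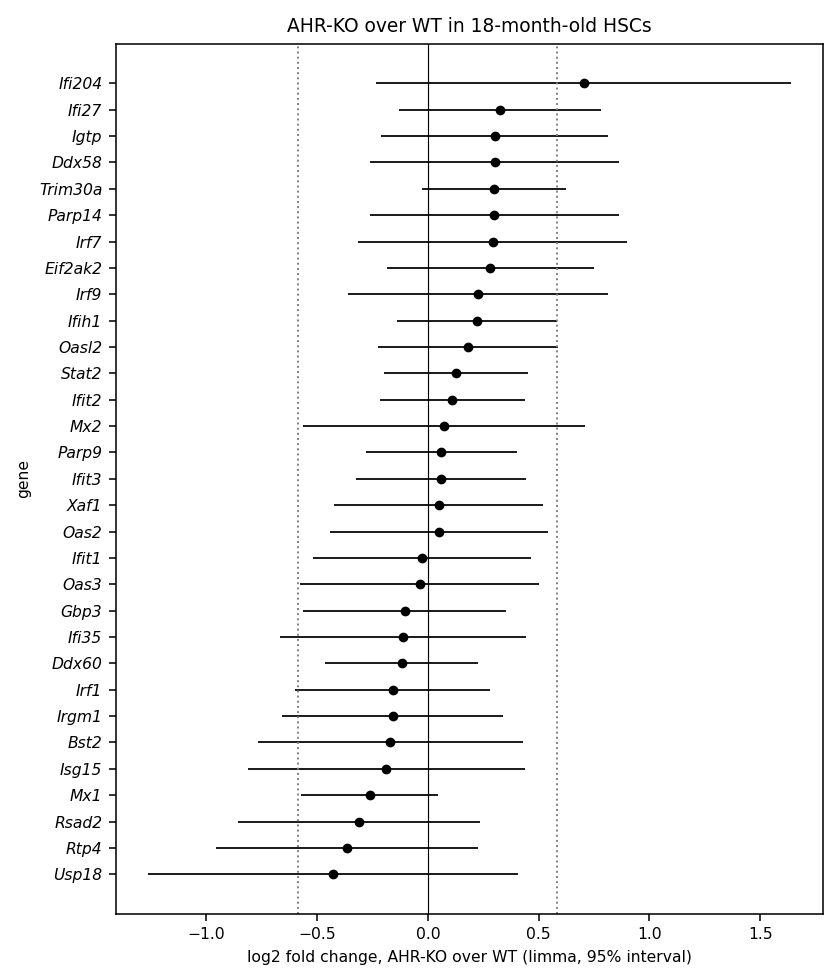
The log2 difference of AHR-KO over WT (horizontal axis, limma on log2(signal + 16)) for each of the 31 interferon-stimulated genes, with its 95% interval over 5 AHR-KO and 5 WT arrays. Dotted lines mark 1.5-fold in either direction, and every interval crosses 0.

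Background was set at log2 5.50 (a signal of 29.2), the 95th percentile of 1483 olfactory, vomeronasal, taste and hair-protein genes that HSCs are not known to use. The mean of 26 of the 31 genes lay above it, and Ifit1, Oas2, Mx1, Mx2 and Ifi204 did not, so their differences concern dim signals. The signals of 1 probe set were not set against those of another, since probes differ in brightness.

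Of the 4 listed transcription factors that carry the interferon signal, 3 had a difference above 0 and 1 below. None had an unadjusted p under 0.05 by limma. Irf7, the factor that amplifies type I interferon production and is itself interferon-induced, read 40.1, 85.6, 95.7, 39.9 and 54.4 in AHR-KO arrays 1 to 5, against 61.4, 25.4, 71.0, 64.3 and 24.7 in WT arrays 1 to 5. AHR-KO arrays 2 and 3 were the highest of the 10 and WT arrays 2 and 5 the lowest, with the others interleaved. The log2 difference was 0.29 (SE 0.28, unadjusted p = 0.316 by limma). Irf9, the DNA-binding partner of STAT2, read 92.3, 234.9, 149.6, 144.8 and 159.1 in AHR-KO arrays, against 156.6, 143.2, 182.5, 125.2 and 59.3 in WT arrays. Here AHR-KO array 2 stood highest and WT array 5 lowest, and the difference was 0.23 (SE 0.27). Irf1, a factor induced by interferon-gamma and the only 1 of these 4 with a negative difference, read 106.1 to 185.4 in AHR-KO arrays and 106.6 to 226.4 in WT arrays. Its log2 difference was -0.16 (SE 0.20). Stat2 ran from 59.8 to 83.5 in AHR-KO arrays and from 50.3 to 89.4 in WT arrays, with a difference of 0.13 (SE 0.15).

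Cytosolic RNA sensors and the kinase PKR, which recognise viral RNA, included several of the larger positive values. Eif2ak2, which encodes PKR, the kinase that stops translation on binding double-stranded RNA, read 74.0, 89.8, 165.5, 107.4 and 152.8 in AHR-KO arrays, against 84.9, 87.4, 129.1, 95.4 and 64.3 in WT arrays. AHR-KO arrays 3 and 5 were the highest of all, AHR-KO array 1 was the second lowest, and the groups overlapped. The difference was 0.28 (SE 0.21, unadjusted p = 0.212 by limma). Ddx58, which encodes the sensor RIG-I, read 73.5, 92.0, 124.5, 97.5 and 112.8 in AHR-KO arrays, against 101.7, 76.8, 118.5, 88.1 and 29.7 in WT arrays. WT array 5 lay far below the rest, and without it the log2 difference was 0.045 in place of 0.30 (SE 0.26). Ifih1, which encodes the sensor MDA5, read 96.5 to 159.5 in AHR-KO arrays and 69.4 to 125.0 in WT arrays, a difference of 0.22 (SE 0.17). Ddx60, a helicase that has been tied to RIG-I signalling, read 23.8 to 49.6 in AHR-KO arrays and 34.7 to 51.7 in WT arrays, a difference of -0.12 (SE 0.16).

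The Ifit genes, which lie together on mouse chromosome 19 and whose proteins bind foreign RNA or translation factors, had differences close to 0. Ifit2 read 57.5 to 107.0 in AHR-KO arrays and 65.4 to 95.6 in WT arrays (log2 difference 0.11, SE 0.15). Ifit3 read 42.8 to 75.2 in AHR-KO arrays and 32.9 to 73.7 in WT arrays (0.06, SE 0.18). Ifit1, dim throughout, read 15.2 to 36.8 in AHR-KO arrays and 9.45 to 47.7 in WT arrays (-0.03, SE 0.22).

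Oligoadenylate synthetases make the messenger that activates RNase L. All 3 that were measured had a larger SD in AHR-KO than in WT arrays, with a median SD of 0.49 in AHR-KO and 0.20 in WT arrays on the log2 scale. Oas3 read 39.2, 74.7, 121.4, 54.4 and 75.1 in AHR-KO arrays, against 75.6, 44.1, 78.9, 60.6 and 109.6 in WT arrays. Both the lowest and the highest of its 10 values belonged to AHR-KO arrays, and the difference was -0.04 (SE 0.25). Oasl2, of the same family, read 112.0, 232.8, 201.7, 126.6 and 156.1 in AHR-KO arrays, against 147.4, 157.1, 142.1, 106.8 and 149.0 in WT arrays. AHR-KO arrays 2 and 3 lay above every WT array and AHR-KO arrays 1 and 4 below all but WT array 4, with a difference of 0.18 (SE 0.19). Oas2, dim throughout, had the lowest and the highest of its values in AHR-KO arrays as well, 4.78 in array 1 and 34.8 in array 3, against 14.1 to 22.2 in WT arrays.

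Other antiviral effectors were split, with 3 of 8 above 0 and 5 below. Ifi27, a small membrane protein strongly induced by interferon, read 303.3, 473.3, 459.6, 278.8 and 324.8 in AHR-KO arrays, against 235.8, 321.3, 438.8, 218.9 and 250.3 in WT arrays. AHR-KO arrays 2 and 3 were highest with WT array 3 next to them, and the 3 lowest values were WT. The difference was 0.33 (SE 0.21, unadjusted p = 0.146 by limma, exact two-sided permutation p = 0.183). Rtp4, a chaperone of membrane receptors that is induced by interferon, had the most negative value of these effectors. It read 67.6, 146.6, 130.7, 57.0 and 125.8 in AHR-KO arrays, against 186.6, 86.9, 147.2, 94.4 and 179.2 in WT arrays. The 3 highest values were WT and the 2 lowest AHR-KO, and the difference was -0.37 (SE 0.27, unadjusted p = 0.202 by limma, exact two-sided permutation p = 0.278). Rsad2 encodes viperin, which makes a chain-terminating nucleotide, and read 31.2, 80.8, 79.0, 20.8 and 49.6 in AHR-KO arrays, against 67.9, 68.5, 58.5, 50.3 and 71.9 in WT arrays. Its WT values lay within a narrow band with AHR-KO values on both sides of it, and the difference was -0.31 (SE 0.25). Bst2, the tethering protein tetherin whose promoter is printed above, read 108.5, 212.2, 365.7, 266.5 and 239.9 in AHR-KO arrays, against 176.7, 216.4, 298.8, 365.7 and 247.0 in WT arrays. AHR-KO array 1 was lowest, AHR-KO array 3 and WT array 4 were highest, and the difference was -0.17 (SE 0.27).

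Mx1, the gene of an interferon-induced GTPase, came nearest to separating the groups by the exact permutation test. It read 12.3, 15.8, 16.5, 14.7 and 24.2 in AHR-KO arrays, against 19.7, 15.8, 29.1, 31.2 and 21.2 in WT arrays. The values of AHR-KO arrays 1 to 4 lay below all WT values except WT array 2, but all were near background. The log2 difference was -0.26 (SE 0.14, unadjusted p = 0.0889 by limma, exact two-sided permutation p = 0.0952). Its neighbour Mx2 read 17.8 to 35.6 in AHR-KO arrays and 1.15 to 45.8 in WT arrays, where both extremes fell, with a difference of 0.07 (SE 0.29). Ifi35, an interferon-induced leucine zipper protein, and Xaf1, a promoter of apoptosis, had differences of -0.11 (SE 0.25) and 0.05 (SE 0.22).

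**Figure D2:**
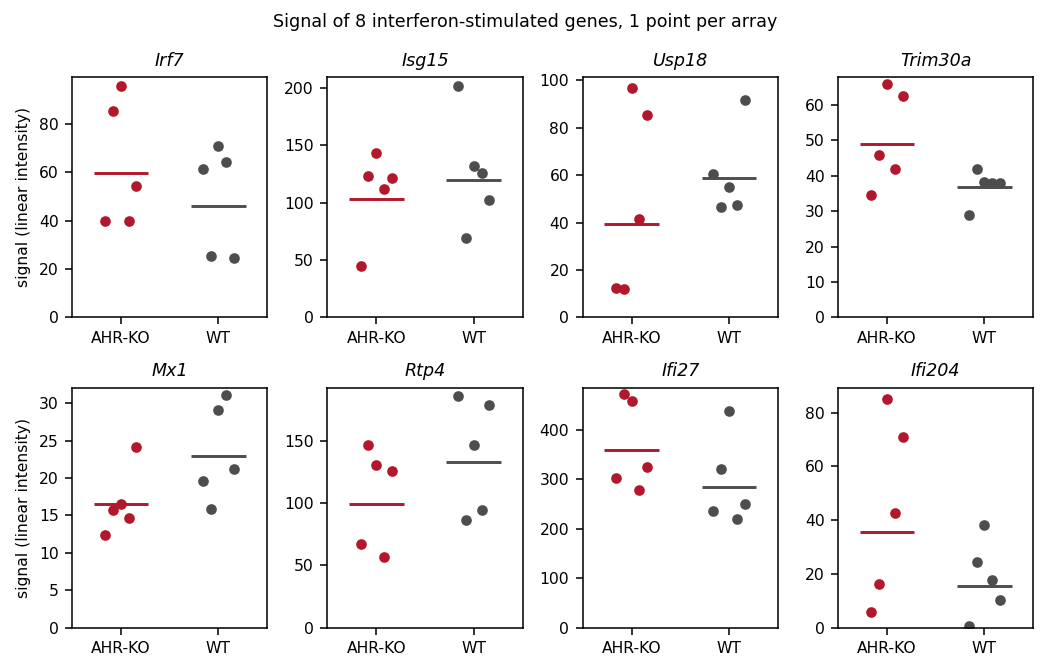
Linear signal (vertical axis, from 0) of 8 interferon-stimulated genes in 5 AHR-KO arrays (red, left) and 5 WT arrays (grey, right), 1 point per array, with a line at the group mean taken on the log2(signal + 16) scale. Red and grey points overlap for every gene, and the red points of Usp18, Trim30a and Ifi204 are spread more widely than the grey.

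The ubiquitin-like and PARP system marks proteins of the response and limits it. Isg15, the ubiquitin-like modifier whose promoter holds the 3 response element matches, read 44.7, 123.4, 143.2, 111.8 and 121.5 in AHR-KO arrays, against 201.2, 68.9, 131.6, 125.6 and 101.9 in WT arrays. AHR-KO array 1 stood well below the 4 others of its group, the highest value was that of WT array 1, and the rest interleaved. The difference was -0.19 (SE 0.29, exact two-sided permutation p = 0.603). Usp18, the protease that removes ISG15 and also blocks IFNAR2, read 12.4, 12.1, 96.9, 41.7 and 85.2 in AHR-KO arrays, against 60.5, 46.5, 54.8, 47.4 and 91.9 in WT arrays. AHR-KO arrays 1 and 2 lay below background while AHR-KO arrays 3 and 5 were among the 3 highest, which gave an SD of 0.96 in AHR-KO and 0.32 in WT arrays on the log2 scale and the most negative difference of the 31 genes, -0.43 (SE 0.38, unadjusted p = 0.286 by limma). Within the 6 arrays of the larger set, AHR-KO 3, 4 and 5 against WT 2, 3 and 4, the difference of Usp18 was 0.41, with the sign turned. Csf1r, the receptor of the macrophage growth factor, was low in the same AHR-KO arrays, at 57.3, 124.9, 308.2, 322.5 and 524.8 in AHR-KO arrays 1 to 5, against 117.9, 279.8, 246.0, 239.4 and 234.0 in WT arrays 1 to 5. The WT arrays did not share this order. WT array 1, the lowest of its group for Csf1r, read 60.5 for Usp18, above WT arrays 2, 3 and 4. A link between Csf1r and Usp18 was not tested.

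Trim30a, a ubiquitin ligase that restrains inflammatory signalling in mice, had the smallest unadjusted p of the list. It read 34.6, 45.7, 65.8, 41.9 and 62.3 in AHR-KO arrays, against 28.7, 41.9, 38.2, 38.0 and 38.0 in WT arrays. AHR-KO arrays 2, 3 and 5 lay above all WT arrays, AHR-KO array 1 lay below all but WT array 1, and 4 of the 5 WT values fell between 38.0 and 41.9. The log2 difference was 0.30 (SE 0.15, 95% interval -0.025 to 0.62, unadjusted p = 0.0673 by limma, exact two-sided permutation p = 0.111). Parp14, an ADP-ribosyltransferase, read 45.0 to 126.3 in AHR-KO arrays and 38.6 to 91.6 in WT arrays, a difference of 0.30 (SE 0.26). Parp9, of the same family, had a difference of 0.06 (SE 0.16).

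Interferon-inducible GTPases attack the vacuoles of intracellular pathogens. Igtp, whose promoter carries both elements, read 197.3, 206.7, 298.7, 120.6 and 174.8 in AHR-KO arrays, against 91.6, 202.6, 171.6, 139.6 and 183.2 in WT arrays. Irgm1, which mouse HSCs need to avoid exhaustion under interferon, read 142.6, 130.0, 240.1, 239.5 and 120.6 in AHR-KO arrays, against 296.7, 171.9, 191.1, 161.5 and 150.8 in WT arrays. WT array 1 was the lowest of the 10 for Igtp and the highest for Irgm1. Their differences were 0.30 (SE 0.24) for Igtp and -0.16 (SE 0.23) for Irgm1, and that of the guanylate-binding protein gene Gbp3 was -0.10 (SE 0.21).

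Ifi204, a DNA-binding PYHIN protein known from mouse macrophages, had the largest positive difference of the list and the only call that changed with the processing. It read 5.77, 16.3, 85.2, 42.8 and 70.9 in AHR-KO arrays, against 0.618, 24.3, 38.2, 17.6 and 10.1 in WT arrays. AHR-KO arrays 3, 4 and 5 lay above all WT arrays, while AHR-KO arrays 1 and 2 lay below WT arrays 2 and 4. The log2 difference was 0.70 (SE 0.43, 95% interval -0.23 to 1.64, unadjusted p = 0.128 by limma, exact two-sided permutation p = 0.206). With the 2 sets of arrays as a block it passed the threshold used by the study at 0.70 (SE 0.22, unadjusted p = 0.00835 by limma, 0.744% of all genes passing), and within the 6 arrays of the larger set it did so at 0.94 (SE 0.24, unadjusted p = 0.00312 by limma, 1.49% of all genes passing). Both fits were chosen after earlier results of these data were seen, and no adjusted p fell under 0.05. Without AHR-KO array 1 alone the difference was 1.01 (unadjusted p = 0.0217 by limma, 0.789% of all genes passing), and without AHR-KO array 3 it was 0.46. The mean log2 deviation of 24 monocyte, macrophage and dendritic cell markers was -0.96, -0.33, 0.38, 0.54 and 0.46 in AHR-KO arrays 1 to 5 and -0.66, 0.23, 0.31, 0.18 and -0.15 in WT arrays 1 to 5. It was above 0 in the 3 AHR-KO arrays in which Ifi204 was highest and lowest in AHR-KO array 1 and WT array 1, in which Ifi204 was lowest, and its part in the Ifi204 values was not tested.

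**Figure D3:**
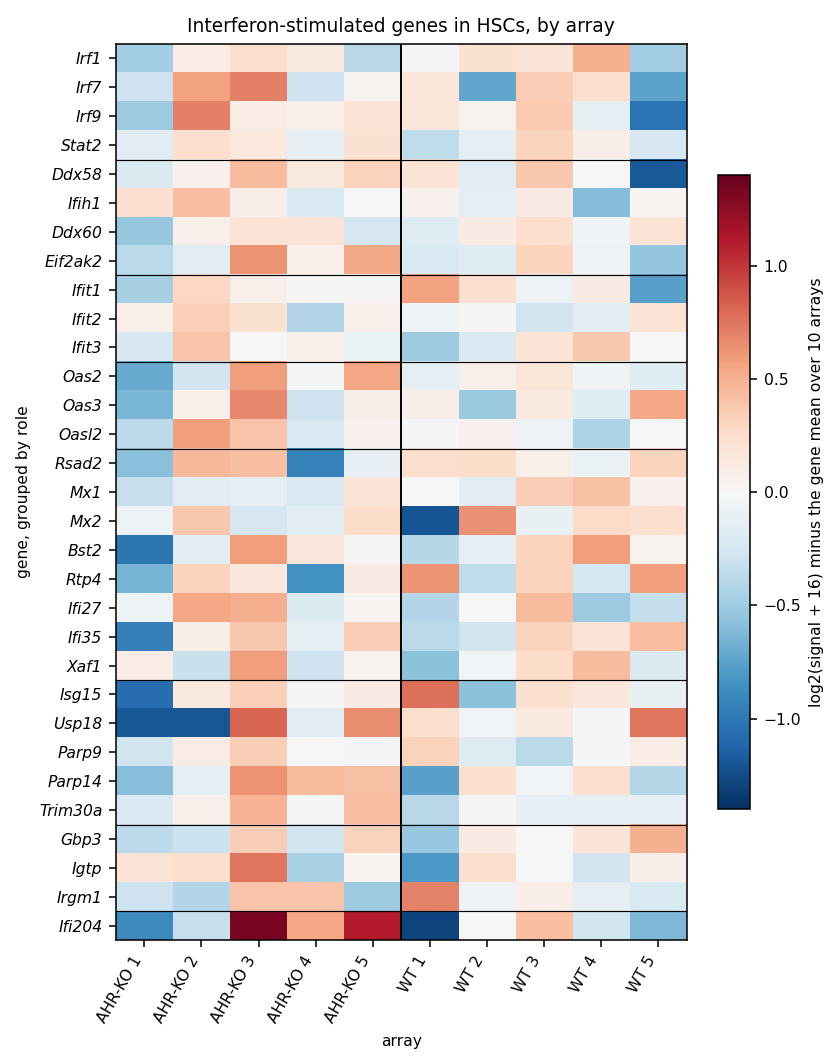
Log2(signal + 16) of each of the 31 genes (rows, grouped by role) minus the gene's mean over 10 arrays, in AHR-KO arrays 1 to 5 and WT arrays 1 to 5 (columns). AHR-KO array 1 is mostly blue (below the mean) and AHR-KO array 3 mostly red (above it).

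The mean of the list varied more between arrays of 1 group than between the groups. The mean log2 deviation of the 31 genes from their 10-array means was -0.42, 0.09, 0.39, -0.10 and 0.15 in AHR-KO arrays 1 to 5, against -0.13, -0.05, 0.15, 0.01 and -0.10 in WT arrays 1 to 5. AHR-KO array 1 was the lowest of the 10 and AHR-KO array 3 the highest, and the WT arrays all lay between them. The group means were 0.024 ± 0.30 in AHR-KO and -0.024 ± 0.11 in WT arrays (SD, n = 5 each), so the difference of 0.049 was smaller than the SD of either group. Its sign hung on single arrays, with -0.043 without AHR-KO array 3 and 0.16 without AHR-KO array 1. AHR-KO array 3 held the highest value for 13 of the 31 genes (41.9%), whereas it held the highest value for 4.76% of all genes. AHR-KO array 1 held the lowest value for 8 genes (25.8%, against 13.0% of all genes) and WT array 1 for 9 (29.0%, against 9.38%). The SD was larger in AHR-KO than in WT arrays for 17 of the 31 genes (54.8%, against 48.3% of all genes), with medians of 0.40 in AHR-KO and 0.37 in WT arrays. The wider AHR-KO spread of the mean deviation was not particular to this list. Its SD in AHR-KO and WT arrays was 1.28 and 0.60 for neutrophil markers and 0.65 and 0.40 for monocyte, macrophage and dendritic cell markers. Among the marker lists, only the erythroid markers went the other way (0.53 and 0.71).

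**Figure D4:**
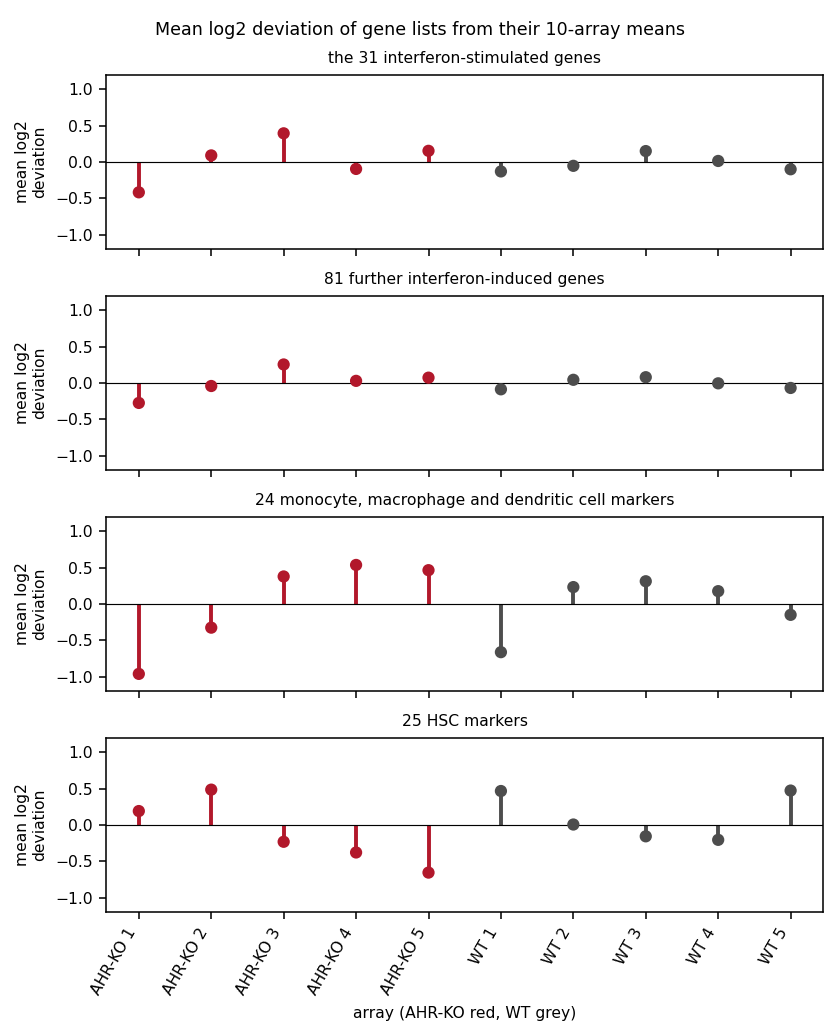
Mean log2 deviation from the 10-array mean (vertical axes) in AHR-KO arrays (red) and WT arrays (grey) for the 31 interferon-stimulated genes, 81 further interferon-induced genes, 24 monocyte, macrophage and dendritic cell markers and 25 HSC markers. In the upper 2 panels AHR-KO array 1 is lowest and AHR-KO array 3 highest, and in the third AHR-KO array 1 is lowest and AHR-KO array 4 highest.

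The genes varied together across the 10 arrays. Over the 465 pairs of the 31 genes the median Pearson's r was 0.28, with 362 pairs positive (77.8%) and 109 above 0.5, against a median of 0.0063 and 50.6% positive for pairs of all genes. The arrays are the same for every pair and were normalized together, so these values are a description. Subtracting each group's mean left the median at 0.29, rank correlation gave 0.25, and the 6 arrays of the larger set gave 0.32. Within the 5 AHR-KO arrays the median was 0.52 with 87.7% of pairs positive, and within the 5 WT arrays it was 0.05 with 52.7% positive, while all genes gave 0.0049 in AHR-KO and 0.010 in WT arrays. That contrast was not tested, and it depended on single arrays: the AHR-KO median ran from 0.35 without AHR-KO array 1 to 0.69 without AHR-KO array 2, and the WT median from -0.038 to 0.11. Without AHR-KO array 1 the median over the 9 remaining arrays was 0.18, and without AHR-KO array 3 it was 0.19.

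The genes that followed the rest most closely were Oas2 (r = 0.86 with the mean deviation of the other 30), Eif2ak2 (0.79), Ifi35 (0.79), Bst2 (0.76) and Trim30a (0.74). Without the 2 arrays farthest from the median of that mean, these values were 0.52, 0.69, 0.52, 0.25 and 0.60 in the same order, so that of Bst2 rested mostly on those arrays. The closest pairs were Parp14 with Ifi204 (r = 0.91), Eif2ak2 with Ifi204 (0.89) and Trim30a with Ifi204 (0.88), followed by Eif2ak2 with Oas2 (0.86), Oas2 with Ifi204 (0.84) and Bst2 with Ifi35 (0.84). Ifih1 (r = -0.04), Irgm1 (0.04), Mx2 (0.04) and Ifit2 (0.15) did not follow the rest, and the lowest r of any pair was that of Mx2 with Irgm1 (-0.78), which have opposite extremes in WT array 1.

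**Figure D5:**
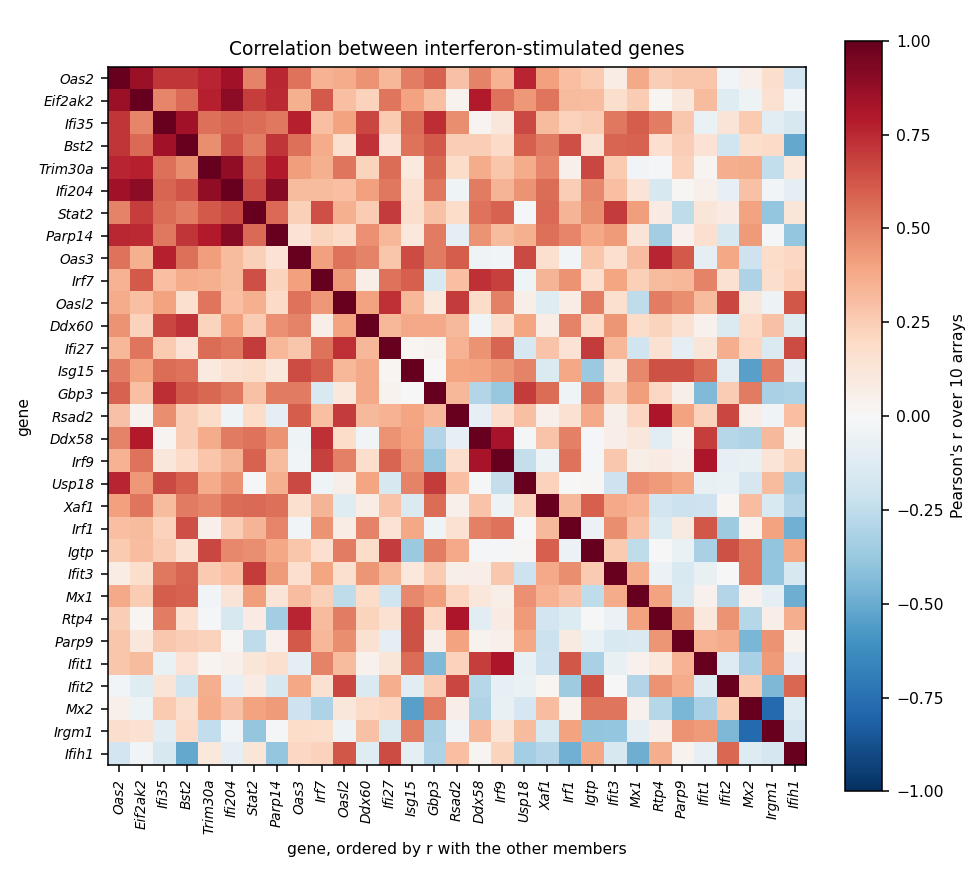
Pearson's r over the 10 arrays (colour scale from -1 to 1) between each pair of the 31 interferon-stimulated genes, ordered by r with the mean of the other members. The block from Oas2 to Parp14 at the upper left is mostly dark red, and Ifih1 at the end of the order is pale or blue against most genes.

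Among 10941 genes outside the interferon lists with a mean above the median, the 8 whose level most resembled the mean deviation of the list over the 10 arrays were Pgm3 (r = 0.87), H2-M3 (0.87), Usp28 (0.87), Gm19891 (0.86), Tmsb10 (0.85), Mm2pr (0.85), Ostm1 (0.85) and Setdb2 (0.85). Without the 2 arrays farthest from the median of the list mean, their r ran from 0.55 (Usp28) to 0.80 (Pgm3).

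Upstream of these genes, the interferons were mostly not detected. Of 19 interferon genes measured, 15 did not lie above background, among them Ifnb1 (0.628 to 7.81 over the 10 arrays) and Ifng (8.85 to 20.9), and 0 passed an unadjusted p under 0.05 by limma. Ifna1, Ifna4, Ifnl2 and Ifnl3 lay above it, at 67.1 to 103.3 for Ifnl2. Ifna15, not above background, was the only 1 of the 19 whose AHR-KO and WT arrays did not overlap, against 0.681% of all genes. It read 21.2 to 27.3 in AHR-KO arrays and 27.5 to 29.9 in WT arrays. The log2 difference of Ifna15 was -0.13 (SE 0.094, unadjusted p = 0.199 by limma, exact two-sided permutation p = 0.00794). Of the 9 receptors and kinases measured, 8 lay above background and 0 passed an unadjusted p under 0.05 by limma. Log2 differences were 0.06 (SE 0.17) for Ifnar1, -0.07 (SE 0.15) for Ifnar2, 0.00072 (SE 0.21) for Ifngr1, 0.17 (SE 0.32) for Ifngr2, -0.15 (SE 0.12) for Jak1, 0.19 (SE 0.15) for Jak2 and 0.24 (SE 0.20) for Tyk2.

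Irf3, the factor that RNA and DNA sensors activate to switch on Ifnb1, was the only 1 of 9 signal and transcription factors measured outside the list whose AHR-KO and WT arrays did not overlap. It read 237.6, 190.0, 209.9, 228.8 and 170.5 in AHR-KO arrays, against 244.3, 248.9, 268.0, 332.4 and 281.3 in WT arrays. Every AHR-KO value lay below every WT value, with AHR-KO array 1 only just below WT array 1. The log2 difference was -0.38 (SE 0.13, unadjusted p = 0.0106 and adjusted p = 0.998 by limma), a ratio of 0.77, short of 1.5-fold, and the exact two-sided permutation p was 0.00794, the smallest that 5 arrays against 5 can give. Of all genes, 0.681% did not overlap. Its unadjusted p by limma stayed between 0.00476 and 0.0320 under all 23 other settings and array removals.

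Other genes of the pathway, from lists put together for this comparison, showed few single differences, to be read against the 3.74% of all genes at an unadjusted p under 0.05 by limma and the 0.523% past the threshold used by the study. Of 81 further interferon-induced genes, 44 lay above 0 and 37 below (median 0.016), with 1 higher and 3 lower at an unadjusted p under 0.05 by limma and 1 past the threshold used by the study. The gene past the threshold was Gbp10, a guanylate-binding protein gene with close copies beside it, which read 17.8 to 100.5 in AHR-KO arrays and 49.3 to 180.3 in WT arrays. The groups overlapped, the difference was -0.84 (SE 0.34, unadjusted p = 0.0309 by limma), and the call was lost in 9 of 23 other settings and array removals, with an unadjusted p of up to 0.0820. Of 19 sensors and adaptors, 14 lay above 0 and 5 below, and 0 passed an unadjusted p under 0.05. Of 14 negative regulators, 4 lay above 0 and 10 below, and the 1 that passed an unadjusted p under 0.05 was Ptpn2, a phosphatase of JAK1 (0.38, unadjusted p = 0.0334 by limma), named here after its value was seen, and 1 call among 14 says nothing of the list. Tiparp, also among these regulators, read 11.5 to 58.3 in AHR-KO arrays and 44.8 to 67.3 in WT arrays, with the lowest value in AHR-KO array 1. Its log2 difference was -0.36 (SE 0.24, unadjusted p = 0.156 by limma). Of 14 class I antigen presentation genes, 8 lay above 0 and 6 below, and 0 passed. The mean deviation of the 81 further genes, -0.27, -0.04, 0.25, 0.03 and 0.07 in AHR-KO arrays 1 to 5 and -0.09, 0.04, 0.08, -0.01 and -0.07 in WT arrays 1 to 5, had the same lowest and highest arrays as that of the 31 genes.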

How the data were processed

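The 10 arrays were grouped by the genotype in their labels, 5 AHR-KO and 5 WT. The deposited intensities are linear and were quantile-normalized by the authors, since the arrays share their median and highest value. Affymetrix Expression Console appears in the submitters' processing notes, without a version, and the algorithm behind these values is not given in the sources used here. For its own arrays, the study's methods describe 1 animal per array and quantile-normalized signals. Gene names came from the platform annotation: of 41345 probe sets, 23521 have 1 gene symbol, 1820 several and 16004 none, and a gene with more than 1 probe set (1082 of 22180 genes, Ifi35 among the listed genes) was read from the brightest.

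Values were tested as log2(signal + 16) with limma 3.58.1 in R 4.3.3 (lmFit and eBayes, Benjamini-Hochberg adjustment over all 22180 genes, no filter), and for single genes with the exact two-sided permutation test over 252 splits of the arrays. A fold change on this scale understates the change of dim genes. The study's threshold is a 1.5-fold difference with an unadjusted p under 0.05. The fit was tested on simulated data. Every listed gene with its own probe set is named, with the receptors, their kinases and Irf3, up to 4 genes of each other pathway list past the study's threshold, and the 8 genes most like the list. The members, lists and sets of arrays were chosen with earlier results of these data known. Promoters are RefSeq's, on GRCm38.p6. Alternatives covered the pseudocount, a filter on dim genes, the probe set used, the variance model, array weights, the fold, the normalization, the replicate number and the array set as blocks, the methods' t-test, and each array left out.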

Additional observations from a re-analysis of the deposited data

Results flagged for a closer look

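Among 64 groups of 5 arrays examined for single extreme values, where chance marks about 1 in 20, 3 were marked. Isg15 read 44.7 in AHR-KO array 1, against 111.8 to 143.2 in the 4 other AHR-KO arrays. Trim30a read 28.7 in WT array 1, against 38.0 to 41.9 in the 4 other WT arrays. Oasl2 read 106.8 in WT array 4, against 142.1 to 157.1 in the 4 other WT arrays. AHR-KO array 1 and WT array 1 both belong to the smaller set of arrays, and WT array 4 does not. Without AHR-KO array 1 the log2 difference of Isg15 was 0.054, with its sign turned.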

How the results depend on the processing

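Of 398 fold changes of listed genes under settings that keep all arrays, 373 kept their direction and their side of the study's threshold, 4 passed it (all of them Ifi204) and 21 changed sign. With 1 array left out, 288 of 310 kept both, 1 passed (Ifi204) and 21 changed sign. The cause of these changes was not tested. The count of listed genes past the study's threshold was 1 in place of 0, always Ifi204, with array weights (log2 difference 0.90), with the replicate number as a block (0.70), with the array sets as a block (0.70) and within the larger array set (0.94), and it ran from 0 to 1 when arrays were left out, being 1 without AHR-KO array 1. The count above 0 was 24 with array weights, 20 within the larger set and 15 to 23 with 1 array left out. The median log2 difference ran from -0.019 without AHR-KO array 3 to 0.12 without AHR-KO array 1.

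The sources used here do not say that the replicate numbers pair the samples. The deviations of the same-numbered AHR-KO and WT arrays correlated at 0.35, -0.20, 0.15, 0.21 and -0.12. Differently numbered arrays were not set beside them, so these values cannot decide whether a pairing exists. The replicate block left the median log2 difference at 0.06. Among the 31 listed genes it changed no call but that of Ifi204 (1 gene past the threshold in place of 0). Over all genes it called 153 in place of 116, and Gbp10, outside the list, lost its call (unadjusted p = 0.0671 by limma).

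Signs turned, on the log2 scale, with a pseudocount of 1 for Ifit1 (0.0094), Oas2 (-0.050) and Ifngr1 (-0.00048). They turned with array weights for Oas3 (0.24), Mx2 (-0.10), Bst2 (0.037), Ifi35 (0.064), Isg15 (0.036), Usp18 (0.076), Gbp3 (0.042) and Irgm1 (0.027). Within the larger set they turned for Stat2 (-0.011), Ifit3 (-0.12), Oas3 (0.34), Mx2 (-0.31), Ifi35 (0.12), Xaf1 (-0.11), Isg15 (0.22), Usp18 (0.41), Gbp3 (0.040), Irgm1 (0.12) and Ifnar2 (0.0016). The fold of linear means turned Mx2 (-0.043), and renewed quantile normalization (-0.0066) and aligned medians (-0.0045) turned Ifngr1. With 1 array left out, the differences that changed sign ran from -0.0032 to 0.38 for Irf9, -0.22 to 0.11 for Ifit1, -0.058 to 0.16 for Ifit3, -0.092 to 0.23 for Oas2, -0.21 to 0.12 for Oas3, -0.22 to 0.24 for Mx2, -0.34 to 0.065 for Bst2, -0.22 to 0.11 for Ifi35, -0.091 to 0.16 for Xaf1, -0.36 to 0.054 for Isg15, -0.026 to 0.15 for Parp9, -0.25 to 0.0074 for Gbp3, -0.067 to 0.13 for Ifnar1, -0.17 to 0.0093 for Ifnar2, -0.13 to 0.15 for Ifngr1 and -0.027 to 0.37 for Ifngr2.

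Over all genes the study's threshold called 116, against 574 at a pseudocount of 1, 16 at 64, 75 by the methods' t-test, 429 by folds of linear means, 71 of the 11090 genes above the median level, 331 within the larger array set and 99 to 230 with 1 array left out. Signals near background limit Ifit1, Oas2, Mx1, Mx2 and Ifi204.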
